A study of Mus musculus with 8 samples.

Results

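The genes described are 10 transporters of the blood-brain barrier, 5 ABC efflux pumps (Abcb1a, Abcg2, Abcc1, Abcc4 and Abcc5) and 5 organic anion carriers (Slco1a4, Slco1c1, Slco2b1, Slco3a1 and Slc22a8). They were picked by symbol and function, and each matched 1 of the 25700 gene identifiers in the count tables. RNA was sequenced from endothelial cells that had been sorted by flow cytometry from brains of C57BL/6 mouse pups at postnatal day 6. KO pups carried the genotype GLUT1EC-/-, in which the glucose transporter GLUT1 (Slc2a1) is deleted in endothelial cells, and WT pups were wild-type littermates per the labels, with 4 pups in each group. The allele, what drove its deletion and the sex of the pups are not stated in the labels, and both groups were uncultured primary cells with no treatment. All 4 KO pups came from 1 cage. According to the titles WT pup 5 shared it and WT pups 1, 2 and 3 had another, whereas the names of the deposited files put WT pup 3 there instead of WT pup 5, so genotype and cage were nearly the same split under either reading. The file names also number the WT pups differently, and WT pups are called here by the numbers in their titles. P-values rest on these 8 pups, and in the edgeR fit on the spread among pups within a group. As all 4 KO pups came from 1 cage, they cannot measure variation between KO cages. Errors given as ± are SDs over the 4 libraries of a group.

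ABC pumps use ATP to drive drugs, metabolites and signalling molecules out of the cell, mostly back into the blood, whereas the organic anion transporting polypeptides (SLCO family) and the organic anion transporter Slc22a8 move hormones, steroid and bile acid conjugates and other anions across the membrane without ATP hydrolysis of their own. Both kinds are used as markers of barrier endothelium, and several are also made by choroid plexus epithelium or by macrophages.

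No pump or carrier passed the test between KO and WT. In edgeR's quasi-likelihood test, adjusted over all 14154 genes tested, 0 of the 10 genes reached an adjusted p under 0.05. Over all genes tested 0.389% were called (39 higher and 16 lower in KO), so a count of 0 among 10 genes is near the background and is not a result about the members. DESeq2 and limma-voom also called 0 of the 10. The 10 genes all passed the filter on low counts. Unadjusted p-values were under 0.05 for Slco1a4, Abcc5 and Abcb1a, 3 of 10, against 1575 of all 14154 genes. The log2 fold change (KO over WT) was positive for 8 members and negative for 2, against 7125 and 7029 of all genes, and its median was 0.09 over the members and 0.00 over all genes. Groups did not overlap for 2 members, Abcc5 and Slco1a4, where every KO library lay above every WT library. The same was true, in either direction, of 7.19% of all genes, and with only 10 genes the count of 2 is too small to set them apart.

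**Figure D1:**
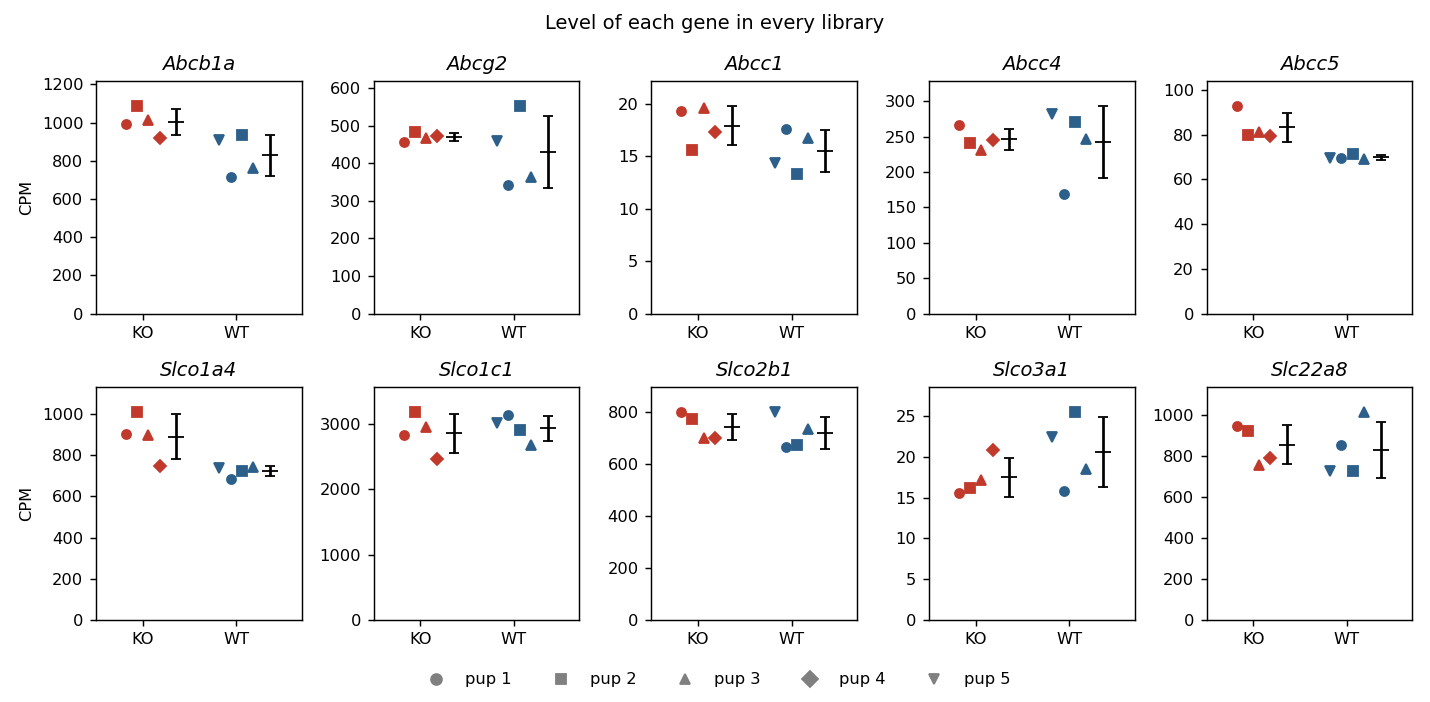
Level of each of the 10 genes in CPM (read counts scaled to a common library total, linear axis from 0) in every library, KO in red at the left of each panel and WT in blue at the right, with the mean and SD (n = 4 each) in black and the symbol giving the pup number. Every KO point lies above every WT point for Abcc5 and Slco1a4, and the groups overlap for the other 8 genes.

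The intervals show how large a difference the data allow. For the 10 genes together, the 95% intervals of the fold change (KO over WT, not adjusted for the number of genes) ran between 0.661-fold, the lower bound of Slco3a1, and 1.43-fold, the upper bound of Abcc1. Those bounds widened to 0.518-fold (Slco3a1) and 1.78-fold (Abcc1) once the cage given by the titles was a term of the fit, and were 0.627-fold (Slco3a1) and 1.76-fold (Abcg2) with the cage given by the file names. With a cage term, each estimate rests on the KO pups against the only WT pup in their cage. Fits within that cage make the same contrast. A p that misses the threshold does not show that the levels were the same in KO and WT. In sorted bulk samples, fewer cells of a type and less RNA per cell cannot be told apart.

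**Figure D2:**
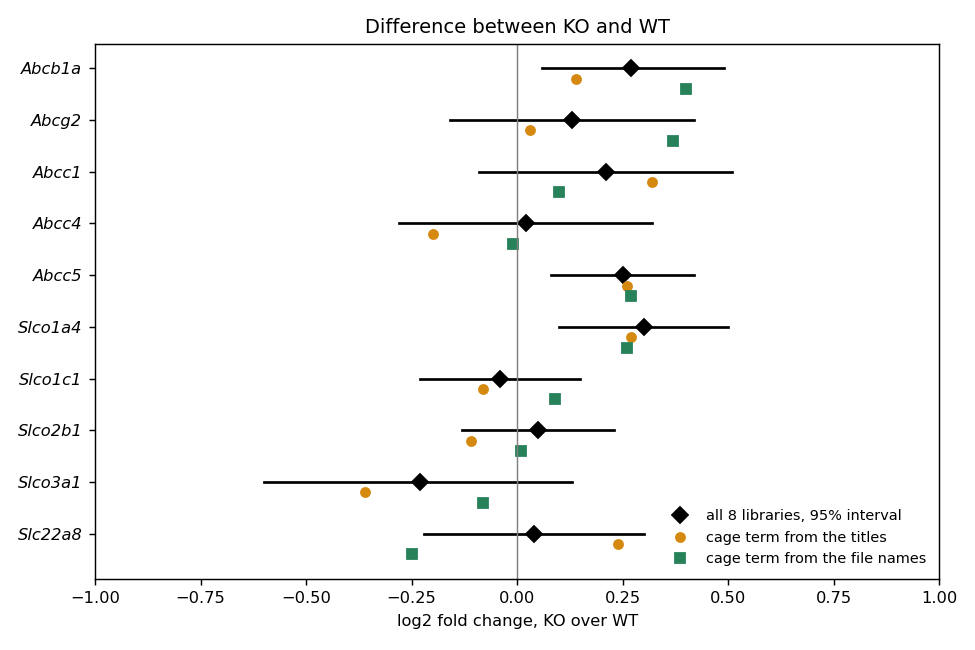
Log2 fold change (KO over WT) of each gene, with the estimate from all 8 libraries and its 95% interval in black, and the estimates with a cage term in orange (cages of the titles) and green (cages of the file names). Abcc5 and Slco1a4 stay between 0.25 and 0.30 under the 3 fits, Abcb1a moves between 0.14 and 0.40, and the points of Abcc4, Slco1c1, Slco2b1 and Slc22a8 fall on both sides of 0. The estimates with a cage term rest on the KO pups against the only WT pup in their cage.

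The sorted cells carried the endothelial identity that the labels state. The targeted transcript was lower in KO than in WT, at 0.495-fold, but was not absent. In CPM, read counts scaled to a common library total by the TMM method, Slc2a1 was at 1507 ± 89.6 CPM (KO, n = 4) and 3044 ± 664 CPM (WT, n = 4; SD), a log2 fold change of -1.01 (edgeR adjusted p 0.00619). Library totals were 20858070 to 40833036 counts in KO and 25886455 to 114007737 in WT. KO pup 1 stood apart, with 13624 genes detected against 15756 to 17082 in the other libraries, and leaving it out changed no call among the 10 genes. The summed level of 10 endothelial markers was 14103 to 15819 CPM in KO and 15233 to 16005 CPM in WT. Mitochondrial genes took 2.28 ± 0.223% of the counts in KO and 1.77 ± 0.121% in WT (exact two-sided permutation p 0.0286, the smallest that 4 against 4 allows), and the part of this difference in the results below was not tested.

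Abcb1a encodes P-glycoprotein, the pump that returns many lipophilic drugs to the blood, and was the most abundant of the 5 pumps per length. Its gene (ENSMUSG00000040584) lies on GRCm38 chromosome 5 from 8660077 to 8748575 on the plus strand. In KO pups 1 to 4 it measured 993, 1087, 1011 and 919 CPM, against 908, 713, 934 and 760.1 CPM in WT pups 5, 1, 2 and 3. All 4 KO values lay above the WT mean, but WT pup 2 exceeded KO pup 4, so the groups overlapped. The group levels were 1002 ± 69.0 CPM (KO, n = 4) and 829 ± 109 CPM (WT, n = 4; SD), a 1.21-fold difference. That is 0.27 on the log2 scale, with an SE of 0.10 and a 95% interval of 0.06 to 0.49, an unadjusted p of 0.0167 and an edgeR adjusted p of 0.312. Cage moved it most among the 3 genes with the smallest p, since the log2 fold change was 0.14 with the cage of the titles as a term (unadjusted p 0.377) and 0.40 with that of the file names (unadjusted p 0.0279, edgeR adjusted p 0.848). Inside the KO pups' cage the values were 0.14 and 0.39 under those readings. The fits with a cage term and those inside the cage make the same contrast, each resting on 1 WT pup.

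Part of Abcb1a's sequence is shared with other genes, which bears on the counting. Of its 5404 transcript windows of 100 bases, the read length, 13.4% also occur in another gene, 488 of them in Abcb1b, its close paralog in rodents, and 357 in Gm42686, a transcript model on the opposite strand. Both took few counts. Abcb1b was at 5.09 ± 2.53 CPM in KO and 2.85 ± 0.715 CPM in WT (log2 fold change 0.85, 95% interval -0.07 to 1.76, edgeR adjusted p 0.498), and it made up 0.154 to 0.738% of the counts of the pair in KO and 0.266 to 0.428% in WT. Gm42686 averaged 0.0281 CPM in KO and 0.00224 CPM in WT. Whether shared reads were dropped or split in the counting is not given in the sources read.

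Abcg2, the breast cancer resistance protein, shares many drug substrates with P-glycoprotein in the same luminal membrane. Its gene (ENSMUSG00000029802) spans chromosome 6 from 58584523 to 58695676, plus strand. Levels were 456, 483, 467 and 471 CPM in KO pups 1 to 4, against 459, 342, 552 and 364 CPM in WT pups 5, 1, 2 and 3. The KO libraries sat close together inside the WT range, with WT pup 2 the highest and WT pup 1 the lowest of all 8. As a share of the mean, the SD was 2.40% in KO and 22.4% in WT, and that difference in spread was not tested. Its log2 fold change was 0.13 (SE 0.13, 95% interval -0.16 to 0.42, edgeR adjusted p 0.784). Inside the KO pups' cage it was 0.03 by the titles and 0.36 by the file names, where WT pup 3 is the only WT pup. With a cage term, which makes the same contrast, it was 0.03 and 0.37 (edgeR unadjusted p 0.886 and 0.0966). Without WT pup 2 it was 0.27 (unadjusted p 0.0202, edgeR adjusted p 0.396) and without WT pup 1 it was 0.03. The unadjusted p was under 0.05 in 3 of the 22 alternative settings. Among these is the fit inside the cage of the file names, where the spread comes from the KO pups only.

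Among the multidrug resistance proteins (ABCC family), Abcc5 separated the groups while Abcc4 and Abcc1 did not. Abcc5 exports cyclic nucleotides and nucleotide analogues (ENSMUSG00000022822, chromosome 16 from 20331303 to 20426394, minus strand). It measured 92.8, 79.9, 81.2 and 79.3 CPM in KO pups 1 to 4, against 69.5, 69.4, 71.5 and 69.2 CPM in WT pups 5, 1, 2 and 3. Every KO library was above every WT library, KO pup 1 stood well above its group, and the SD of the WT values was 1.56% of their mean. Group levels were 83.3 ± 6.39 CPM (KO, n = 4) and 69.9 ± 1.09 CPM (WT, n = 4; SD), a 1.19-fold difference. That is 0.25 on the log2 scale, with an SE of 0.08 and a 95% interval of 0.08 to 0.42. The unadjusted p was 0.00688, which ranked 421 among all genes, and the edgeR adjusted p was 0.231. Without KO pup 1 the log2 fold change was 0.20 (unadjusted p 0.0161), and with a cage term it was 0.26 by the titles and 0.27 by the file names (unadjusted p 0.0712 and 0.0625). Inside the KO pups' cage it was 0.26 under both readings. The fits with a cage term and those inside the cage make the same contrast, against 1 WT pup each time.

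Abcc4 exports cyclic nucleotides, prostanoids and steroid conjugates (ENSMUSG00000032849, chromosome 14 from 118482692 to 118706219, minus strand). Its levels were 267, 241, 231 and 245 CPM in KO pups 1 to 4, against 282, 169, 271 and 247 CPM in WT pups 5, 1, 2 and 3. WT pup 1 was far below the other 7 libraries, and the KO values fell between the WT extremes. The log2 fold change was 0.02 (SE 0.14, 95% interval -0.28 to 0.32, edgeR adjusted p 0.974). Without WT pup 1 it was -0.12, and inside the KO pups' cage it was -0.20 by the titles and -0.02 by the file names.

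Abcc1, which exports glutathione conjugates and leukotriene C4, was the least abundant of the 10 genes per length (ENSMUSG00000023088, chromosome 16 from 14361558 to 14475737, plus strand). It measured 19.3, 15.6, 19.6 and 17.3 CPM in KO pups 1 to 4, against 14.4, 17.6, 13.3 and 16.8 CPM in WT pups 5, 1, 2 and 3. Raw counts were 377 to 725 in KO and 365 to 1480 in WT. The groups overlapped, and the log2 fold change was 0.21 (SE 0.14, 95% interval -0.09 to 0.51, edgeR adjusted p 0.626).

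Slco1a4, a carrier of steroid conjugates, bile acids and cardiac glycosides, had the smallest p of the 10 genes. Its gene (ENSMUSG00000030237) lies on chromosome 6 from 141805440 to 141856199 on the minus strand. It measured 905, 1009.8, 899.5 and 748 CPM in KO pups 1 to 4, against 738, 687, 725 and 743 CPM in WT pups 5, 1, 2 and 3. Of the 4 KO libraries, 3 were well above all WT libraries, and KO pup 4 was above WT pup 3 only by a narrow margin. Group levels were 891 ± 108 CPM (KO, n = 4) and 723 ± 25.6 CPM (WT, n = 4; SD), a 1.23-fold difference. That is 0.30 on the log2 scale, with an SE of 0.09 and a 95% interval of 0.10 to 0.50. The unadjusted p was 0.00605, rank 373 of 14154, and the edgeR adjusted p was 0.226. With a cage term the log2 fold change was 0.27 by the titles and 0.26 by the file names (unadjusted p 0.102 and 0.105), and inside the KO pups' cage 0.27 and 0.25 against 1 WT pup. Both kinds of fit make the same contrast and rest on that 1 WT pup. Leaving out any 1 library kept the log2 fold change between 0.23 and 0.37. Only 0.64% of its transcript windows recur in other genes, in Slco1a5 (1.32 ± 0.292 CPM in KO and 1.47 ± 0.242 CPM in WT) and Slco1a1, which had 0.0414 CPM in KO and 0.0112 CPM in WT on average.

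Slco1c1 brings the thyroid hormone thyroxine across the barrier and had the highest level of the 10 genes, also per length. The gene (ENSMUSG00000030235) spans chromosome 6 from 141524368 to 141570177, plus strand, and is separated from Slco1a4 by 235262 bases that hold Gm5724 and Slco1b2. Levels were 2824, 3182, 2961 and 2461 CPM in KO pups 1 to 4, against 3017, 3134, 2907 and 2677 CPM in WT pups 5, 1, 2 and 3. KO pup 2 was the highest and KO pup 4 the lowest library, so the KO group enclosed the WT group. The log2 fold change was -0.04 (SE 0.09), and the 95% interval of -0.23 to 0.15 (0.854- to 1.11-fold) had an edgeR adjusted p of 0.926.

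Set against each other within a library, Slco1a4 and Slco1c1 gave a ratio that does not depend on how libraries are scaled. Slco1a4 counts were 0.320, 0.317, 0.304 and 0.304 of Slco1c1 counts in KO pups 1 to 4, and 0.245, 0.219, 0.249 and 0.278 of them in WT pups 5, 1, 2 and 3. KO pup 4, whose Slco1a4 level was near that of WT, also had the lowest Slco1c1 level, and its ratio equalled that of KO pup 3. The pair was chosen after its values were seen, so the ratio is given as a description with no test, and a ratio shows unequal levels without saying which gene differs.

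**Figure D3:**
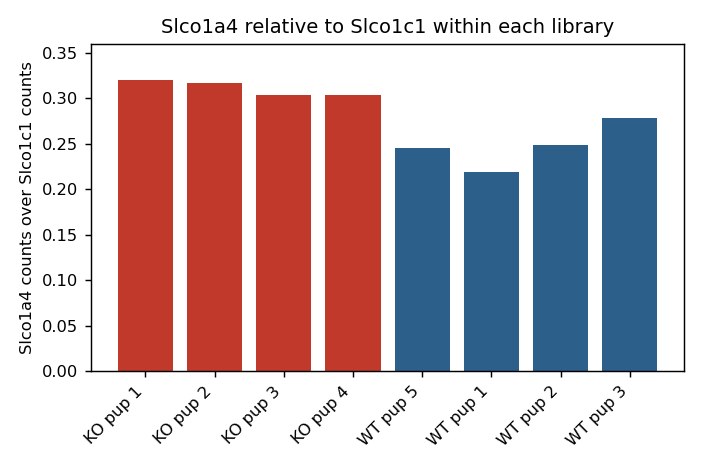
Slco1a4 read counts divided by Slco1c1 read counts within each library (linear axis from 0, not corrected for length), KO in red at the left and WT in blue at the right. The KO bars stand between 0.304 and 0.320 and the WT bars between 0.219 and 0.278.

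The promoters of the 3 genes with the smallest p and of Slco1c1 are shown. Those of the 3 are given for their p, and that of Slco1c1 as the gene that Slco1a4 was set against. RefSeq (GRCm38.p6) gives windows from 250 bases before to 50 after the start and 8 of the 10 genes matched, all but Abcc1 and Slco3a1. Each is written 5′ to 3′ on the gene's own strand. Capitals mark the 1 match to the antioxidant response core TGACNNNGC, found on the reverse strand of the Abcb1a window.
Abcb1a, chr5:8566841-8567140, plus strand: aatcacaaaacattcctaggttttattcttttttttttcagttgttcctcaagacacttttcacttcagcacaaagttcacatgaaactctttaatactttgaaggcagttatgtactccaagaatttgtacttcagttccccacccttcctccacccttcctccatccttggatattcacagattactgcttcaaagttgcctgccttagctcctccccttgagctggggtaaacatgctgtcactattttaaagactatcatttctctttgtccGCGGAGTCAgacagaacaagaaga
Abcc5, chr16:20426345-20426644, minus strand: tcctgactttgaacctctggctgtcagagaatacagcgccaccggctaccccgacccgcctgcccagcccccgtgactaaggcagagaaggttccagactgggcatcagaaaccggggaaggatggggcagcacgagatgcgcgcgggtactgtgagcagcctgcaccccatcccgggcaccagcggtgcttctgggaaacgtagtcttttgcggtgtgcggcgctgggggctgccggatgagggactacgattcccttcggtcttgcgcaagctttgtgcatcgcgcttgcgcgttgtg
Slco1a4, chr6:141856171-141856470, minus strand: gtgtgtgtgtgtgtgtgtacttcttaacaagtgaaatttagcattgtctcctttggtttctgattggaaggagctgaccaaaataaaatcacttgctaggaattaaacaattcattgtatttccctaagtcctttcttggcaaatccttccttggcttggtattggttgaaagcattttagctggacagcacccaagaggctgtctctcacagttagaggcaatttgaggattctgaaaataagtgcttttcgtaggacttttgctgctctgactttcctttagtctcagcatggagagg
Slco1c1, chr6:141524104-141524403, plus strand: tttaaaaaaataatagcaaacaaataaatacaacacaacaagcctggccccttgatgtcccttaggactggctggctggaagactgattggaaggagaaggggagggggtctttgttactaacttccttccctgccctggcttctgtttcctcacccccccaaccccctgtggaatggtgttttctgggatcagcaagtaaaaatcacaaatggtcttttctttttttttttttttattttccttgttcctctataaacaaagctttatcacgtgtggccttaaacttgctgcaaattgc

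These 4 windows differ in composition. Abcc5 has 24 CpG pairs and 63.0% GC, Abcb1a has 2 and 40.3%, Slco1a4 has 1 and 40.7%, and Slco1c1 has 1 and 42.0%, against medians of 7 CpG pairs and 52.7% GC over 32851 RefSeq promoters. On both strands they were searched for TGACNNNGC (bound by NRF2), AGGTCA (a nuclear receptor half-site), GCGTG (the core bound by the aryl hydrocarbon receptor) and GGGCGG (the GC box), which occur in 12.4%, 16.3%, 32.4% and 35.7% of all the promoters. Apart from the Abcb1a match, the 4 windows held none of these letters, which says nothing on the binding of any factor. The match is not particular to Abcb1a, as TGACNNNGC also occurs in each Abcc4 window, not shown here. The other motifs had matches in windows of Abcc4 or Abcg2. The Abcb1a window ends at base 8567140, upstream of the GENCODE start of the gene at 8660077. Its last bases were found in no GENCODE transcript of the gene, and which start these cells use was not tested.

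Slco2b1 carries steroid sulfates and many drugs, and is also made by macrophages and microglia (ENSMUSG00000030737, chromosome 7 from 99657804 to 99711340, minus strand). It measured 800.1, 774, 699.8 and 700.5 CPM in KO pups 1 to 4, against 801, 665, 676 and 736 CPM in WT pups 5, 1, 2 and 3. The groups overlapped almost completely, and the highest values of each were nearly the same. Its log2 fold change was 0.05 (SE 0.08, 95% interval -0.13 to 0.23, edgeR adjusted p 0.890). The summed level of 9 microglial and macrophage markers was 909.9 to 2500.3 CPM in KO and 872 to 1372 CPM in WT, and all 9 log2 fold changes were positive, with none called. That sum was highest in KO pup 3, where Slco2b1, at 699.8 CPM, was practically level with KO pup 4 at 700.5 CPM. The part of these cells in the Slco2b1 level was not tested. An antisense gene without a count row, Gm15635, shares 4.25% of its transcript windows.

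Slco3a1, a carrier of prostaglandins and thyroxine, was a low-level member (ENSMUSG00000025790, chromosome 7 from 74275419 to 74554780, minus strand). It measured 15.6, 16.2, 17.2 and 20.9 CPM in KO pups 1 to 4, against 22.5, 15.8, 25.5 and 18.5 CPM in WT pups 5, 1, 2 and 3. KO pups 1 to 3 were below 3 of the WT libraries, while WT pup 1 was as low as they were. Over all 8 libraries its log2 fold change of -0.23 was the most negative of the 10 (SE 0.17, 95% interval -0.60 to 0.13, edgeR adjusted p 0.663). It was -0.11 without WT pup 2 and -0.34 without WT pup 1. With the cage of the file names as a term it was -0.08, where Slc22a8 was at -0.25.

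Slc22a8 (OAT3) takes up organic anions, including neurotransmitter metabolites, from the brain side of the endothelium. The gene (ENSMUSG00000063796) spans chromosome 19 from 8591254 to 8611835, plus strand. Levels were 945, 922, 755 and 789.7 CPM in KO pups 1 to 4, against 723, 854, 723 and 1012 CPM in WT pups 5, 1, 2 and 3. Each group held high and low libraries, with the highest and the lowest values in WT. The log2 fold change was 0.04 (SE 0.12, 95% interval -0.22 to 0.30, edgeR adjusted p 0.939). Inside the KO pups' cage by the file names, which holds WT pup 3, it was -0.26, and with a cage term from the titles it was 0.24.

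Cells of the choroid plexus make several of these genes, and their summed markers were lower in every KO library than in every WT library. The summed level of 8 choroid plexus epithelium markers was 86.3, 135, 21 and 296 CPM in KO pups 1 to 4, against 1905, 455, 892 and 372 CPM in WT pups 5, 1, 2 and 3. All 8 log2 fold changes were negative with a median of -1.81, none was called, and no marker lacked counts in all libraries at once. The sum had an exact two-sided permutation p of 0.0286, or 0.257 adjusted over 9 marker lists. In WT pup 5, the library with the highest sum, Slc22a8 was at its lowest level, 723 CPM, which it also had in WT pup 2. Abcc4 was at its highest there, at 282 CPM, and Slco1c1, at 3017 CPM, was exceeded by KO pup 2 and WT pup 1. The part of these cells in the levels of Slco1c1, Slc22a8, Abcc1 and Abcc4 was not tested.

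Markers of the remaining cell types overlapped between the groups. Summed levels were 1664 to 2490.1 CPM in KO and 439 to 2497 CPM in WT for 9 mural markers. For 7 astrocyte markers they were 310.2 to 412 CPM in KO and 317 to 380.1 CPM in WT, where 6 of the log2 fold changes were positive, led by Gfap (1.43, edgeR adjusted p 0.237). The median over these astrocyte markers was 1.03 on the log2 scale, and 6 of the 7 had an unadjusted p under 0.05, among them Gja1 (-0.23), named after its values were seen because it took most of the sum, with 254.8 ± 32.5 CPM in KO and 299.2 ± 29.6 CPM in WT. None was called, and their part in the results was not tested. Fibroblast and arachnoid markers, 8 genes, summed to 176 to 335 CPM in KO and 191 to 307 CPM in WT. The sums of erythrocyte markers were 569 to 1001 CPM in KO and 522 to 1629 CPM in WT, those of oligodendrocyte lineage markers 68.2 to 148 CPM in KO and 61.3 to 150.5 CPM in WT, and those of neuronal markers 17.5 to 23.0 CPM in KO and 18.6 to 28.6 CPM in WT. The gene with the smallest p in each list was Tek (-0.30, endothelial), Acta2 (0.76, mural), Mrc1 (0.77, macrophage), Gfap, Stmn2 (-0.46, neuronal), Pdgfra (-0.81, oligodendrocyte lineage), Aqp1 (-1.75, choroid plexus), Col3a1 (-0.28, fibroblast) and Hbb-bt (-0.77, erythrocyte), given as log2 fold changes, and none was called (edgeR adjusted p 0.130 or more). Exact permutation p-values adjusted over the 9 lists were 0.698 to 0.886 for these lists and the endothelial and microglial ones.

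The 10 genes spanned a wide range of levels. Per kilobase of exon, Slco1c1 was highest, with 551 ± 58.4 CPM per kb in KO and 566 ± 37.5 in WT (SD, n = 4 each), which ranked 34 in KO and 33 in WT among 14142 genes. Slc22a8 came next with 218 ± 24.3 CPM per kb in KO and 212 ± 35.1 in WT. Abcb1a had 183 ± 12.6 CPM per kb in KO and 151 ± 19.8 in WT. Thus carriers held the top places, and Abcb1a led the pumps.

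Slco1a4 and Slco2b1 traded places between the groups, though their ranges overlapped in each. Slco1a4 had 139 ± 16.8 CPM per kb in KO and 113 ± 3.99 in WT, and Slco2b1 had 125 ± 8.60 in KO and 121 ± 10.5 in WT. Abcg2 followed with 57.6 ± 1.38 CPM per kb in KO and 52.7 ± 11.8 in WT, and Abcc4 with 38.5 ± 2.39 in KO and 37.9 ± 7.99 in WT. The lowest 3 were Abcc5 (7.80 ± 0.598 in KO and 6.54 ± 0.102 in WT), Slco3a1 (2.06 ± 0.280 in KO and 2.43 ± 0.505 in WT) and Abcc1 (1.19 ± 0.123 in KO and 1.03 ± 0.134 in WT). Neighbours in this order overlapped in KO for Slc22a8 with Abcb1a and Slco1a4 with Slco2b1. In WT they overlapped for Abcb1a with Slco2b1, Slco2b1 with Slco1a4, and Abcg2 with Abcc4, while every other neighbouring pair was separate.

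**Figure D4:**
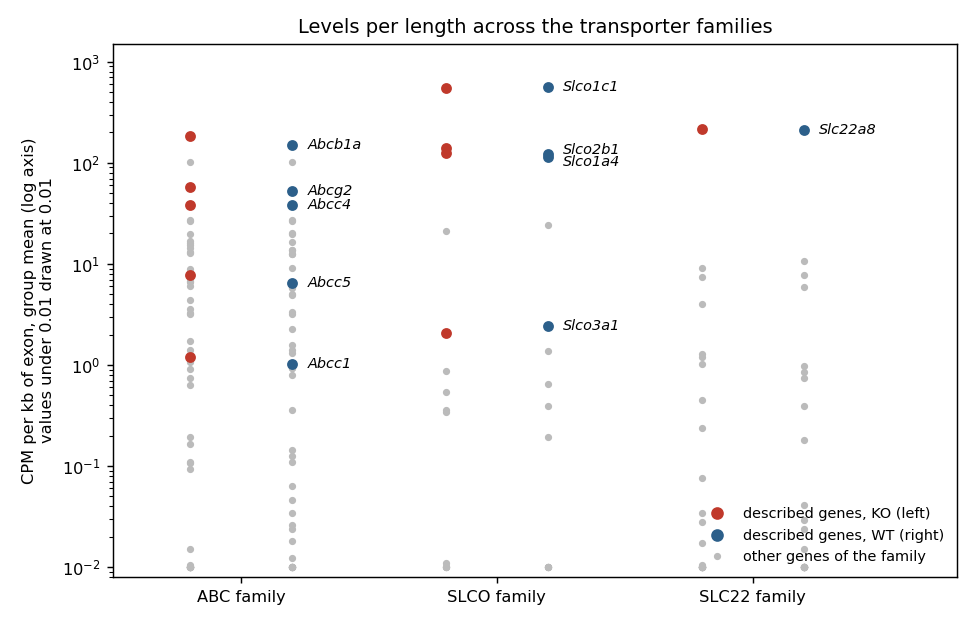
Mean level per kilobase of exon (CPM per kb, log axis, values under 0.01 drawn at 0.01) of every gene of the ABC, SLCO and SLC22 families, KO at the left and WT at the right of each family. The 10 described genes are in red (KO) and blue (WT) and the remaining genes in grey, and Slco1c1, Slc22a8 and Abcb1a stand at the top of their families in both groups.

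Within their families the described genes carried much of the RNA. The 4 SLCO members made up 97.2 ± 0.0698% of the family's summed level per length in KO and 96.7 ± 1.03% in WT. Slc22a8 alone held 89.7 ± 0.591% of the SLC22 family in KO and 88.2 ± 2.30% in WT, and the 5 pumps 47.0 ± 0.819% of the ABC family in KO and 43.7 ± 4.65% in WT. Of 10 further SLCO genes 5 were tested, of 24 further SLC22 genes 8, and of 45 further ABC genes 31, and none of these was called.

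Further family members gave the following values. Abca1, which exports cholesterol and was the most abundant further ABC gene per length, had 1072 ± 104 CPM in KO and 1048 ± 45.8 CPM in WT (log2 fold change 0.03, edgeR adjusted p 0.932). Abcf1 and Abcf2, which act on translation rather than transport, differed by -0.04 and 0.02. The smallest p among the further ABC genes was that of Abcb6, a porphyrin transporter, with 17.4 ± 3.22 CPM in KO and 12.2 ± 1.53 CPM in WT (log2 fold change 0.52, edgeR adjusted p 0.239). The sterol exporter Abcg1 (-0.23) and the peroxisomal fatty acid transporter Abcd2 (0.59) came after it, each with an edgeR adjusted p of 0.483.

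Among the carriers, Slco2a1, the prostaglandin transporter, was at 285 ± 26.8 CPM in KO and 331 ± 126 CPM in WT (log2 fold change -0.22, edgeR adjusted p 0.792). Slco4a1, a thyroid hormone carrier, had the lowest p among the further SLCO genes, with 2.57 ± 1.14 CPM in KO and 6.55 ± 2.39 CPM in WT (log2 fold change -1.34, edgeR adjusted p 0.239). Slco5a1 and Slco1b2 differed by 0.43 and 0.79, both with overlapping groups. In the SLC22 family the log2 fold changes were -0.58 for Slc22a17, 0.70 for Slc22a21, a carnitine transporter, -0.20 for Slc22a23 and -0.06 for Slc22a5, the main carnitine transporter, with edgeR adjusted p-values of 0.245, 0.408, 0.483 and 0.902.

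Genes that act on the pumps and carriers or share their substrates were counted in lists, chosen with earlier results of these data known. Of the receptors that control transporter genes, 12 of 16 were tested and 1 was called, against 0.389% called over all genes tested. That was Esr1, oestrogen receptor alpha, with 26.7 ± 2.53 CPM in KO and 1.43 ± 0.419 CPM in WT (log2 fold change 4.23, SE 0.21, edgeR adjusted p 4.34e-06). The list's median log2 fold change was 0.02, with 7 positive and 5 negative. Nfe2l2, which encodes the stress-response factor NRF2, was at 169 ± 13.7 CPM in KO and 133 ± 14.6 CPM in WT (0.34, edgeR adjusted p 0.180), and Rxra, a partner of many nuclear receptors, 53.0 ± 3.04 CPM in KO and 64.8 ± 3.12 CPM in WT (-0.29, edgeR adjusted p 0.186). Groups did not overlap for either, which in either direction was true of 7.19% of all genes tested, and neither was called.

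Enzymes that oxidise or conjugate the substrates of the pumps gave 1 call among 12 of 13 tested, against 0.389% called over all genes tested. Ephx1, the microsomal epoxide hydrolase, had 121 ± 6.92 CPM in KO and 22.2 ± 3.77 CPM in WT (log2 fold change 2.45, SE 0.13, edgeR adjusted p 4.34e-06). In that list 11 log2 fold changes were positive and 1 negative, with a median of 0.18. The negative one was Sult1a1, a phenol sulfotransferase, at 33.5 ± 11.8 CPM in KO and 64.9 ± 25.1 CPM in WT (-0.95, edgeR adjusted p 0.259), and Gstm5, a glutathione transferase, differed by 0.21 (edgeR adjusted p 0.310).

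Lists for thyroid hormones, prostaglandins and membrane anchors held no call. Of 9 tested thyroid hormone genes 7 were positive and 2 negative, with a median of 0.16, and those with the smallest p were Thra (-0.27), Thrb (1.0) and the amino acid and iodothyronine transporter Slc7a8 (0.26), with edgeR adjusted p-values of 0.265, 0.333 and 0.403. Of 10 prostaglandin genes 4 were positive and 6 negative, with a median of -0.03. Hpgd, which inactivates prostaglandins, was at 31.2 ± 10.2 CPM in KO and 14.3 ± 3.23 CPM in WT (1.13, edgeR adjusted p 0.0968), Ptgs2, the inducible cyclooxygenase, differed by -1.28 (edgeR adjusted p 0.370), and Hpgds, a prostaglandin D synthase, by 0.66 (edgeR adjusted p 0.380). Of 7 tested anchors and scaffolds 3 were positive and 4 negative, with a median of -0.05, and Cav1 (-0.20), Rdx (-0.18) and Slc9a3r1 (0.28) had the smallest p, with edgeR adjusted p-values of 0.521, 0.588 and 0.592.

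Variation among pups was shared by several of the pumps and carriers. WT pups 5 and 2 were higher than WT pups 1 and 3 for Abcb1a, Abcg2, Abcc4 and Slco3a1, and by a narrow margin for Abcc5. Abcc1 and Slc22a8 had their lowest WT values in pups 5 and 2. In KO pup 4, Abcb1a, Abcc5, Slco1a4 and Slco1c1 were each at the lowest level of their group, while Slco3a1 was at its highest. No groups were formed from these patterns.

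**Figure D5:**
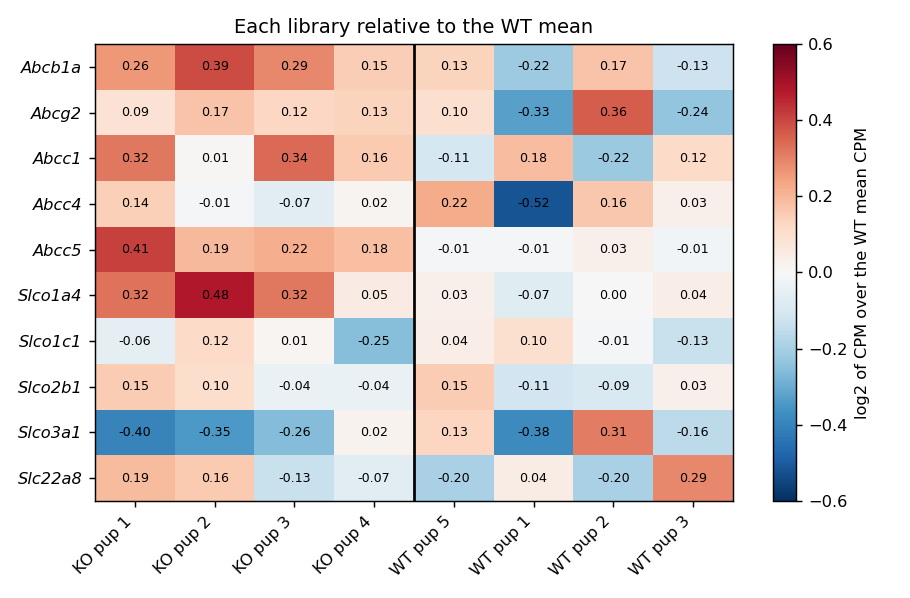
Log2 of each library's CPM over the WT mean for each gene, KO libraries at the left and WT libraries at the right of the black line, red for above and blue for below the WT mean. The Abcc5 row is at 0.18 or more in all KO libraries and within 0.03 of 0 in all WT libraries. WT pup 1 is the lowest WT library in the Abcb1a, Abcg2, Abcc4, Slco1a4, Slco2b1 and Slco3a1 rows.

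For the 2 genes whose groups did not overlap, the genes with the most similar profile were found as those with the smallest root mean square difference of centred log2 CPM over the 8 libraries, among 9963 genes with a mean log2 CPM of 3 or more. For Abcc5 these were Ddx19b, Dnajb14 and Gdap2, at 0.0384, 0.0461 and 0.0472, and for Slco1a4 they were Synm, Gpam and Ubox5, at 0.0471, 0.0476 and 0.0527. The 6 were picked for being alike over these same libraries, so their likeness is not a separate result. None of the 6 was called.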

How the data were processed

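Messenger RNA was sequenced in 8 samples with stranded poly(A) libraries and single-end reads, per the labels' protocols. The authors deposited 1 table of read counts per gene for each library, whole numbers with no normalization. STAR, featureCounts and GRCm38 are named in the submitters' processing notes, with no version. The annotation they counted on and whether strand was used are likewise not given in the sources used here. If it was not, reads from overlapping genes on opposite strands cannot be told apart. Symbols and positions came from GENCODE M21 and named 25664 of 25700 identifiers, and the 36 without a name took 0.0223% of the counts.

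From the deposited counts, edgeR 4.0.16 (R 4.3.3) kept 14154 of 18602 genes with any count (filterByExpr with the genotype groups, minimum count 10 and minimum total 15), scaled libraries by TMM (factors 0.978 to 1.03) and ran the quasi-likelihood F test on genotype, with Benjamini-Hochberg adjustment over all tested genes and a threshold of 0.05. Each standard error was the log2 fold change divided by the root of F. Levels are CPM on the TMM-scaled totals, also divided by the length of the exon union in kb. Marker sums and the mitochondrial share were compared by exact two-sided permutation over 70 assignments. The fit was tested on simulated counts. No 2 libraries held the same counts (chi-square per gene at least 16.0).

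The genes, gene lists and tests were chosen with earlier results of these data known. Genes named were the 10 transporters, Slc2a1, every called gene and the 3 with the smallest p of each pathway list, the 3 most abundant per length of each family list in WT, the gene with the smallest p of each marker list, and the 3 genes most alike in profile to each transporter whose groups did not overlap. Abcb1b, Slco1a5, Slco1a1, Gm42686 and Gm15635 were added for their shared sequence. The 22 alternatives changed scaling, filter, test (DESeq2 1.42.0, limma-voom from limma 3.58.1), covariates (cage by either label, a replicate block on the pup number, and 1 surrogate variable estimated with sva 3.50.0), libraries and depth.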

Additional observations from a re-analysis of the deposited data

Results flagged for a closer look

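Within a group of 4 libraries, 3 values of the 118 groups examined stood far from the rest by Dixon's criterion (the gap to the nearest library over the group's range), where chance gives about 1 in 20. Abcc5 in KO pup 1 was at 92.8 CPM, against 79.3 to 81.2 CPM in KO pups 2 to 4. In WT pup 2 it was at 71.5 CPM, against 69.2 to 69.5 CPM in the other WT pups, a small gap in a very narrow group. Ephx1 in WT pup 1 was at 16.6 CPM, against 23.5 to 24.8 CPM in the other WT pups.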

How the results depend on the processing

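Of the 10 genes, 0 were called in each of the 22 alternatives. Abcb1a, Abcc5 and Slco1a4 kept their sign in all 22 and had an unadjusted p under 0.05 in 18, with a smallest adjusted p of 0.0694, reached by Slco1a4 in DESeq2. For Abcc5 and Slco1a4 the settings that missed an unadjusted p of 0.05 were the fits with a cage term or within the KO pups' cage. Most of the remaining settings leave genotype and cage nearly the same split. Abcg2, Abcc1 and Slco3a1 also kept their sign in all 22. The log2 fold change of Abcc4 was -0.20 with the cage of the titles as a term and within that cage, -0.01 with the cage of the file names, -0.02 within it, and -0.01 with a surrogate variable. That of Slco2b1 was -0.11 with the cage of the titles and within it, and -0.02 without KO pup 1 and WT pup 2. That of Slco1c1 was 0.09 with the cage of the file names, 0.08 within it and 0.04 with the replicate block. That of Slc22a8 was -0.25 with the cage of the file names, -0.26 within it, -0.01 with a surrogate variable and -0.07 without KO pup 1 and WT pup 2. Leaving out 1 library at a time gave -0.12 to 0.10 for Abcc4, -0.02 to 0.15 for Slc22a8 and -0.10 to 0.02 for Slco1c1. None of these reversed values was past the threshold, and the cause was not tested.

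Over all genes, 39 higher and 16 lower became 171 and 180 in DESeq2, 63 and 34 with a surrogate variable, 10 and 6 with the cage of the titles, and 10 and 0 with that of the file names (758 genes at an unadjusted p under 0.05). Restricted to the KO pups' cage, 10 were higher and 12 lower by the titles, and 5 higher and 2 lower by the file names. With no filter 38 were lower, and 26 were lower when KO pup 1 and WT pup 2 were both left out. Leaving out single libraries gave 25 to 60 higher and 6 to 27 lower, with 60 and 25 without KO pup 1, 25 higher without KO pup 2, 6 lower without KO pup 3 and 27 lower without WT pup 3. The surrogate variable mostly set KO pup 1 apart, at 0.929 against -0.218 to -0.0776 in the other libraries. It is thus close to the setting without that pup. By the titles, pup numbers did not pair the samples, as deviations of same-numbered pups correlated at -0.029, 0.026 and -0.071. As a replicate block over the 3 numbers in both groups the title numbers gave 11 higher and 0 lower genes by edgeR (959 at an unadjusted p under 0.05). KO minus WT differences without 1 library were 105 to 791 CPM for mural, 189 to 719 for microglial, -949.6 to -439 for choroid plexus, -437 to -68.3 for erythrocyte, -11.5 to 22.4 for astrocyte, -32.6 to 20.5 for fibroblast and -3.02 to 0.299 for neuronal marker sums, so the last 3 changed sign. With 4 pups per group and nearly confounded cages, differences of the size measured here, up to 1.23-fold, may be missed. Thinning all libraries to the lowest total called 0 of the 10 genes.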
